A study of Homo sapiens with 4 samples.

Results

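The dual specificity MAP kinase phosphatases described here are the products of 10 genes, DUSP1, DUSP2, DUSP4, DUSP5, DUSP6, DUSP7, DUSP8, DUSP10, DUSP14 and DUSP16. They were taken by symbol, with no cut on their values, from tables that list 25411 genes, and each of the 10 had a row. The list was chosen with earlier results of these data known. RNA came from BEAS-2B, a human cell line derived from bronchial epithelium. The cells had grown for 72 h in medium without added metal (control, 2 libraries) or with CdCl2 at 5 µM (cadmium, 2 libraries). The labels give the controls and the cadmium libraries different experiment numbers, without stating whether these were separate experiments. If they were, experiment and exposure cannot be told apart. The labels also do not say that libraries of a group came from separate cultures, and the p-values then measure only a spread that may be technical.

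MAP kinases are switched on by phosphorylation of a threonine and a tyrosine in their activation loop, and these phosphatases remove both phosphates. Their usual division is into nuclear enzymes whose genes are induced by mitogens or stress (DUSP1, DUSP2, DUSP4 and DUSP5), cytoplasmic enzymes that prefer ERK (DUSP6 and DUSP7), enzymes that prefer the stress kinases JNK and p38 (DUSP8, DUSP10 and DUSP16), and DUSP14, a small atypical member without the MAP kinase docking domain. Several of the genes are themselves targets of the kinases that their products switch off, which makes a negative feedback loop.

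Depth and sample identity bear on all that follows. Gene reads totalled 26529403 in control replicate 1, 8609243 in control replicate 2, 29937242 in cadmium replicate 1 and 15537382 in cadmium replicate 2. For comparisons between libraries, levels are CPM (reads scaled to library size, with TMM factors), and 3 reads were worth 0.356 CPM in control replicate 2, the shallowest library, against 0.0980 CPM in cadmium replicate 1. For comparisons between genes they are the deposited RPKM (reads scaled to gene length and library size). Of 8 epithelial markers, the simple-epithelium keratin KRT8 had from 5463 to 17978 reads per library, KRT5 and KRT14 had at most 1 read, and CDH1 had at most 28. The epithelial list summed to 1270 and 1476 CPM in the controls and 1087 and 1196 CPM with cadmium, and its calls went both ways. KRT7 fell by 1.02 and EPCAM rose by 1.36 on the log2 scale (edgeR adjusted p = 0.00234 and 0.0131). Of 6 leukocyte markers, CD3E and LYZ had 0 reads in every library and PTPRC had at most 2. The leukocyte list summed to 62.8 and 64.0 CPM in the controls and 94.7 and 88.2 CPM with cadmium, most of it CD68. CD68 rose by 0.59 on the log2 scale (edgeR adjusted p = 0.00857), and CD14 did not pass (0.11, edgeR adjusted p = 0.826). Of the endothelial markers PECAM1 had 0 reads, and the list of 5 summed to 1.31 and 1.19 CPM in the controls and to 3.79 and 3.48 CPM with cadmium. Most of that sum was TIE1, the only marker of this list that was tested. It rose by 1.68 on the log2 scale (edgeR adjusted p = 0.0160). The fibroblast list, with DCN and COL3A1 at 0, summed to 4381 and 3539 CPM in the controls against 3265 and 3070 CPM with cadmium. Nearly all of it was COL1A1, at 4379 and 3538 CPM against 3263 and 3068 CPM (log2 fold change -0.32, edgeR adjusted p = 0.0690). The nuclear-retained RNAs MALAT1 and NEAT1, which shift with RNA quality, were higher with cadmium by 0.87 and 0.59 on the log2 scale (edgeR adjusted p = 0.00188 and 0.0228). The part of these markers in the results below was not tested.

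DUSP2, DUSP14 and DUSP16 differed between the groups by more than the spread between libraries. DUSP2 fell 2.67-fold, DUSP14 fell 1.45-fold, and DUSP16 rose 1.41-fold. All 10 genes passed the filter on low counts, and 1 rose, 2 fell and 7 did not pass (edgeR's quasi-likelihood test, Benjamini-Hochberg adjusted p under 0.05 over 13663 genes). Over all genes tested 8.85% were called higher, 7.66% lower and 16.5% in either direction. The median log2 fold change was -0.16 over the 10 genes and 0.0019 over all genes. With libraries scaled by their totals alone, the same 3 genes passed, and 67.9% of all calls were higher against 53.6% with TMM scaling.

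**Figure D1:**
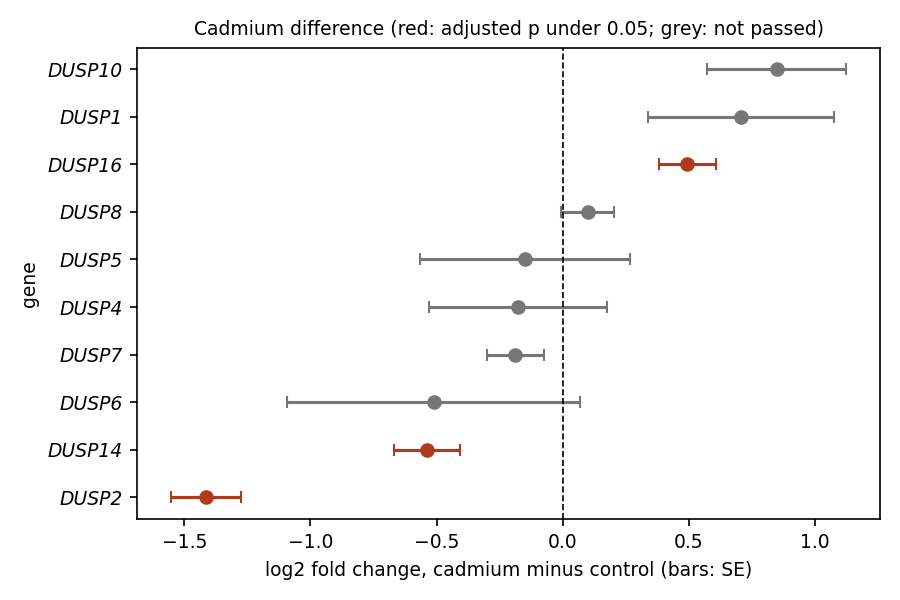
Log2 fold change (cadmium minus control, x axis) of the 10 phosphatase genes (y axis) from edgeR, with bars of 1 SE, and the median of all tested genes as a dashed line. DUSP2 (-1.41) and DUSP14 (-0.54) lie to the left and DUSP16 (0.49) to the right in red, and the bars of DUSP6, DUSP5, DUSP1 and DUSP4 are the widest.

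DUSP2 encodes a nuclear phosphatase of ERK and p38 and lies on chromosome 2, 96808909 to 96811179 in hg19, minus strand. Control replicates 1 and 2 held 1218 and 314 of its reads, cadmium replicates 488 and 251, that is 46.8 and 37.3 CPM against 15.9 and 15.9 CPM. Both cadmium libraries lay far below both controls, and the cadmium libraries were nearly equal to each other. The mean was 42.0 ± 6.71 CPM in control and 15.9 ± 0.0398 CPM with cadmium (SD, n = 2 per group), and the log2 fold change was -1.41 (SE 0.14, edgeR adjusted p = 0.00241). In bulk RNA, fewer cells with a transcript and less of it per cell cannot be told apart. The authors' deposited table lists DUSP2 with an adjusted p of 5.43e-12. In that deposited table, 15.5% of 12807 genes with an adjusted p below 1 have one under 0.05, and DUSP2, DUSP14 and DUSP16 are the 3 of the 10 phosphatase genes that do.

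DUSP14 encodes the atypical member, known for acting on the kinase TAK1 and its partner TAB1 in immune signalling. The gene lies on chromosome 17, 35849952 to 35873588 in hg19, plus strand. Its 87.0 and 70.4 CPM in the controls stood above 50.04 and 59.4 CPM with cadmium. The groups did not overlap, and the difference was smaller than that of DUSP2. The means were 78.7 ± 11.7 and 54.7 ± 6.59 CPM, with a log2 fold change of -0.54 (SE 0.13, edgeR adjusted p = 0.0292). The call was lost without control replicate 1 (-0.37, edgeR adjusted p = 0.0792) and without cadmium replicate 1 (-0.41, edgeR adjusted p = 0.179).

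DUSP16 encodes a phosphatase that prefers JNK and moves between cytoplasm and nucleus, and lies on chromosome 12, 12626217 to 12715448 in hg19, minus strand. It stood at 26.3 and 24.1 CPM in the controls and at 36.2 and 35.1 CPM with cadmium. The spread within each group was small against the step between them. Means of 25.2 ± 1.53 and 35.7 ± 0.757 CPM gave a log2 fold change of 0.49 (SE 0.11, edgeR adjusted p = 0.0237). Without cadmium replicate 1 or 2 the log2 fold change was 0.48 and 0.52, and the edgeR adjusted p was 0.170 and 0.0989.

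The promoters of the 3 genes that passed, and that of DUSP1, the most abundant member with cadmium, are shown for the response elements they hold. The sequences are the 250 bases before the annotated start, from RefSeq on GRCh38.p14. Such windows were used for 8 of the 10 genes, all but DUSP4 and DUSP5, with 2 starts for DUSP10. All matches to 5 motifs are in capitals: AP-1 (TGACTCA), the cyclic AMP response element CRE (TGACGTCA), the serum response element (CArG box), the metal response element (TGCACNC or TGCGCNC) and the heat shock element (GAANNTTC), each searched on both strands. Each promoter lies on the strand of its gene: DUSP1 at chr5:172771196-172771445, DUSP2 at chr2:96145441-96145690, DUSP14 at chr17:37489641-37489890 and DUSP16 at chr12:12562864-12563113.
DUSP1: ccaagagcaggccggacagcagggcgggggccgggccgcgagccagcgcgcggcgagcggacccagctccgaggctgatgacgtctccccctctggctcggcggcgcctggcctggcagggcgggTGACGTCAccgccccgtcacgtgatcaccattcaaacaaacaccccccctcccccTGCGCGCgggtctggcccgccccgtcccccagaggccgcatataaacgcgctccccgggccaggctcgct
DUSP2: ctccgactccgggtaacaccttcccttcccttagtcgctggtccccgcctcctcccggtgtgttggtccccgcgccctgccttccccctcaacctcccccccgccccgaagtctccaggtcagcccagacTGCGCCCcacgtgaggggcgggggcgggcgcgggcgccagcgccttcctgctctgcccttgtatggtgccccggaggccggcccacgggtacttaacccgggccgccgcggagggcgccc
DUSP14: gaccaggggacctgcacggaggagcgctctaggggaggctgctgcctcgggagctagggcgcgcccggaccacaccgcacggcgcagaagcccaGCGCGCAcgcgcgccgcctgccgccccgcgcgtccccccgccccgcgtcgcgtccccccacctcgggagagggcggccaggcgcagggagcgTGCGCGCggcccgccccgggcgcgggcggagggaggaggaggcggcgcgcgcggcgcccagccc
DUSP16: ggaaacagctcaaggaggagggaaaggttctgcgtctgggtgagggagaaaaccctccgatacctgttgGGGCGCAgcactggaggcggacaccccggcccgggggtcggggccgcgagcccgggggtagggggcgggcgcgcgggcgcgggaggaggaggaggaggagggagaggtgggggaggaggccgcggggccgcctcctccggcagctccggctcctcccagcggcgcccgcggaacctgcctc

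In the DUSP1 window the capitals mark a CRE 125 to 118 bases before the start and a metal response match 70 to 64 bases before it. In DUSP2 they mark 1 metal response match, in DUSP14 a pair of them on opposite strands, and in DUSP16 1 match on the opposite strand. CRE matches were found in 2 of the 9 windows, those of DUSP1 and DUSP8, the latter with 2 of them, and in 1.65% of 35116 promoters. Metal response matches were in 5 of the 9 windows and in 24.8% of all promoters, genes that fell and genes that rose alike. No window held an AP-1, serum response or heat shock match, which 4.2%, 1.16% and 5.78% of all promoters did. The windows of DUSP1, DUSP2, DUSP14 and DUSP16 had a GC content of 74.4%, 74.0%, 82.8% and 74.8% against a median of 58.0%. Those of DUSP8 and DUSP7 had 76.8% and 78.4%. The window of DUSP6 had 57.2% and those of DUSP10 had 55.2% and 56.4%. The windows of DUSP6, DUSP7 and DUSP10 held no match. The share of metal response matches among promoters of like GC content was not computed. A match here describes letters, and binding was not measured.

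The other inducible nuclear genes, DUSP1, DUSP4 and DUSP5, did not pass, and in each the 2 controls stood far apart. DUSP1 (chromosome 5, 172195094 to 172198203 in hg19, minus strand) encodes the best known stress-induced member, which acts on p38, JNK and ERK. It had 131 and 68.2 CPM in the controls and 180 and 151 CPM with cadmium. Both cadmium libraries were above both controls, by a narrow margin over control replicate 1. The log2 fold change was 0.71 (SE 0.37, edgeR adjusted p = 0.289). It was 1.28 without control replicate 1 and 0.33 without control replicate 2, and each of these passed (edgeR adjusted p = 0.000219 and 0.0441). The authors' deposited table gives DUSP1 an adjusted p of 0.339.

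DUSP5 (chromosome 10, 112257626 to 112271302 in hg19, plus strand) encodes a nuclear phosphatase specific to ERK. It stood at 27.3 and 11.3 CPM in the controls and at 18.8 and 17.7 CPM with cadmium. The cadmium libraries lay between the controls and close to each other, with a log2 fold change of -0.15 (SE 0.42, edgeR adjusted p = 0.843). Set against control replicate 2 alone DUSP5 was higher by 0.70 on the log2 scale (edgeR adjusted p = 0.0246), and set against control replicate 1 alone it was lower, at -0.59 (edgeR adjusted p = 0.00478). In such fits the lone control is assumed to vary like the other group. DUSP4 (chromosome 8, 29190580 to 29208267 in hg19, minus strand), whose product acts on ERK and JNK, was read 218 and 29 times in the controls against 179 and 84 times with cadmium. At 8.37 and 3.44 CPM against 5.85 and 5.32 CPM its cadmium libraries also lay between the controls (log2 fold change -0.18, SE 0.35, edgeR adjusted p = 0.764). Without control replicate 1 the value for DUSP4 turned to 0.70 (edgeR adjusted p = 0.143).

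DUSP6 and DUSP7 encode the cytoplasmic phosphatases that prefer ERK, and differed from each other in how far the controls diverged. DUSP6 (chromosome 12, 89741603 to 89746636 in hg19, minus strand), a widely used readout of ERK activity, was read 198 and 15 times in the controls against 123 and 51 times with cadmium. Its levels of 7.61 and 1.78 CPM in the controls bracketed those of 4.02 and 3.23 CPM with cadmium. The log2 fold change was -0.51 with the widest error of the 10 genes (SE 0.58, edgeR adjusted p = 0.591). It was 1.04 without control replicate 1 (edgeR adjusted p = 0.103) and -1.06 without control replicate 2 (edgeR adjusted p = 0.00443). DUSP7 (chromosome 3, 52082938 to 52090461 in hg19, minus strand) stood at 35.4 and 34.3 CPM in the controls and 29.1 and 32.3 CPM with cadmium. The groups of DUSP7 did not overlap, but the difference was small (log2 fold change -0.19, SE 0.11, edgeR adjusted p = 0.278).

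Among the phosphatases that prefer JNK and p38, DUSP8 and DUSP10 did not pass. DUSP8 (chromosome 11, 1575282 to 1593150 in hg19, minus strand) had 37.4 and 35.9 CPM in the controls and 40.0 and 38.5 CPM with cadmium. This narrow step gave a log2 fold change of 0.099 (SE 0.10, edgeR adjusted p = 0.548). DUSP10 (chromosome 1, 221874763 to 221915518 in hg19, minus strand) was read 111 and 20 times in the controls against 202 and 97 times with cadmium, that is 4.26 and 2.38 CPM against 6.60 and 6.14 CPM. Both cadmium libraries of DUSP10 were above both controls, and its log2 fold change of 0.85 was the highest of the 10 genes (SE 0.28, edgeR adjusted p = 0.0684). It was 1.42 without control replicate 1, which passed (edgeR adjusted p = 0.0137), and 0.58 without control replicate 2 (edgeR adjusted p = 0.0860). In all, 7 of the 10 genes had both cadmium libraries outside both controls, 4 above and 3 below, where 62.1% of all tested genes did.

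Control replicate 1 was above control replicate 2 for 10 of the 10 phosphatase genes, where 49.2% of all tested genes were. The ratio of control replicate 1 to control replicate 2 was 4.27 for DUSP6, 2.43 for DUSP4, 2.42 for DUSP5, 1.93 for DUSP1 and 1.79 for DUSP10. It was 1.25 for DUSP2 and 1.23 for DUSP14, and 1.09, 1.04 and 1.03 for DUSP16, DUSP8 and DUSP7. The 3 genes whose cadmium libraries lay between the controls, DUSP6, DUSP4 and DUSP5, had the widest gaps. Between the cadmium libraries the ratios of the 10 genes ranged from 0.843 for DUSP14 to 1.24 for DUSP6. The share of all tested genes with a smaller difference between the cadmium libraries ran from 2.23% for DUSP2 to 84.2% for DUSP6. For DUSP6, 99.5% of all tested genes had a smaller difference between the controls, and for DUSP4 97.4%, whereas for DUSP7 14.8% did. For 4 of the 10 genes, DUSP1, DUSP4, DUSP5 and DUSP6, the difference between the controls was larger on the log2 scale than the cadmium difference. The share of all tested genes for which this held was not computed. These controls also differ in depth, and the gap between them was not recomputed on counts thinned to equal depth. With such counts only the cadmium difference was fitted, with a log2 fold change of -0.64 for DUSP6 and 0.73 for DUSP1. The part of depth in the gap was not tested.

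**Figure D2:**
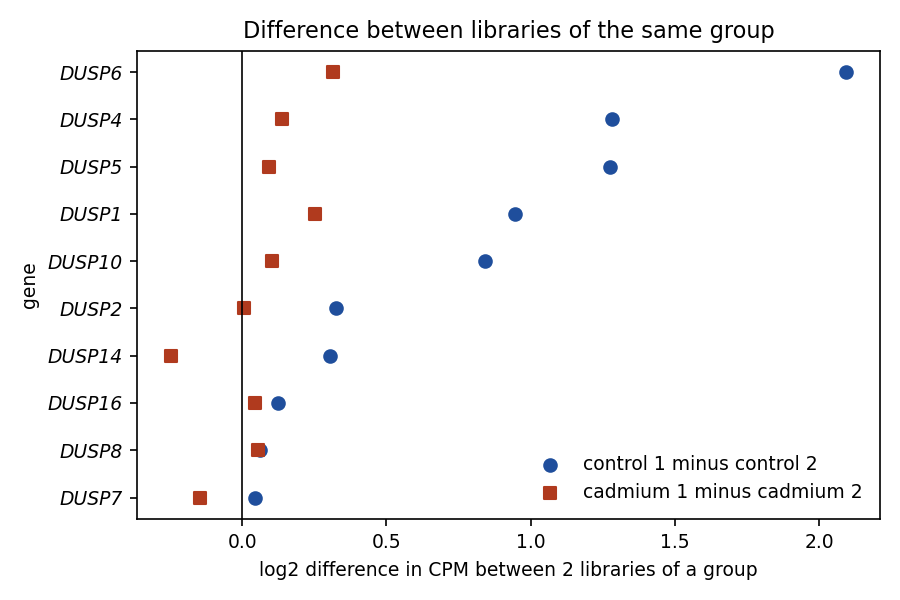
Log2 difference in CPM (x axis) between the libraries of a group for each of the 10 genes (y axis), with control 1 minus control 2 as blue circles and cadmium 1 minus cadmium 2 as red squares. The blue circles run from 0.045 for DUSP7 to 2.09 for DUSP6, whereas the red squares lie between -0.25 and 0.32.

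The rest of the MAP kinase pathway was taken from 9 lists that hold 116 genes, of which 100 were tested, and 9 rose and 3 fell (12% called, against 16.5% of all genes). Their median log2 fold change was 0.085. Of the other dual specificity phosphatases 12 of 16 were tested, and 1 rose and 1 fell. DUSP9, a further ERK-preferring phosphatase, had 2.27 and 2.02 CPM in the controls and rose to 5.78 and 5.32 CPM (log2 fold change 1.35, edgeR adjusted p = 0.0120), and DUSP12 fell by 0.52 on the log2 scale (edgeR adjusted p = 0.0340). With counts thinned to equal depth, with libraries scaled by their totals alone or without cadmium replicate 2, 0 genes of this list were lower, and without cadmium replicate 1 none passed in either direction. Of the tyrosine phosphatases that act on MAP kinases only PTPRR was tested, with a log2 fold change of 0.95 (edgeR adjusted p = 0.0802).

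For the kinases themselves calls are given list by list, beside the 16.5% of all genes. Of 11 tested MAP kinases 1 rose and 0 fell. That gene was MAPK13, a p38 isoform of epithelia, with a log2 fold change of 0.92 (edgeR adjusted p = 0.0329), and with DESeq2, with thinned counts or without any of 3 libraries (all but control replicate 2) 0 MAP kinases passed. Of 7 MAP kinase kinases edgeR called 0, with 1 below 0.05 before adjustment, and DESeq2 and limma-voom called 0. MAP2K1 was nearest (log2 fold change 0.20, edgeR adjusted p = 0.143). Of 22 MAP kinase kinase kinases 2 rose and 2 fell, which is 18.2% of the list. MAP3K12 and MAP3K9 rose by 0.61 and 0.57. MAP3K11 and MAP3K6, named after their values were seen, fell by 0.36 and 0.33. Of 10 tested kinases downstream 1 rose, RPS6KA6 by 1.21, and of 9 tested scaffold genes 2 rose, ARRB1 by 0.52 and SPAG9 by 0.28. Without cadmium replicate 1 each of these kinase and scaffold lists had 0 calls.

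Genes that report ERK and stress kinase output shared the gap between the controls. Of 15 tested ERK output and feedback genes 0 passed with edgeR and 1 had an unadjusted p under 0.05, while DESeq2 called 1 and limma-voom 0. Their median log2 fold change was -0.17, and EPHA2 was nearest (-0.62, edgeR adjusted p = 0.0929). All 15 were higher in control replicate 1 than in control replicate 2, 7 of them by more than 2-fold, as were 3 of the 10 phosphatase genes and 2.56% of all tested genes. EGR1 and SPRY4, named after their values were seen, had 4991 and 148 reads in control replicate 1 and 256 and 12 reads in control replicate 2. With cadmium EGR1 had 8575 and 3448 reads and SPRY4 had 96 and 22. Scaled to depth, EGR1 at 280 and 218 CPM was above both controls (192 and 30.4 CPM). SPRY4 at 3.14 and 1.39 CPM overlapped them (5.69 and 1.43 CPM).

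Of 13 tested immediate early and AP-1 genes 2 rose, FOSB by 1.24 (edgeR adjusted p = 0.0410) and ZFP36, which destabilises AU-rich transcripts, by 0.71 (edgeR adjusted p = 0.0485). With thinned counts or without cadmium replicate 1, 0 genes of the list passed. In this list 12 of 13 genes were higher in control replicate 1 than in control replicate 2, with a median difference of 0.65 on the log2 scale, against 0.59 for the 10 phosphatase genes, 0.61 for the ERK output genes and -0.0048 for all genes. Without control replicate 1 the counts of genes that rose were 4 of the 10 phosphatase genes, 4 ERK output genes and 9 immediate early genes, and those that fell numbered 1, 0 and 0. In that fit 7.56% of all genes rose and 7.34% fell. Without control replicate 2 the genes that rose numbered 2, 1 and 3 and those that fell 4, 6 and 1, where 13.8% of all genes rose and 12.5% fell. The kinase and scaffold lists had medians between -0.067 and 0.092 for the difference between the controls.

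**Figure D3:**
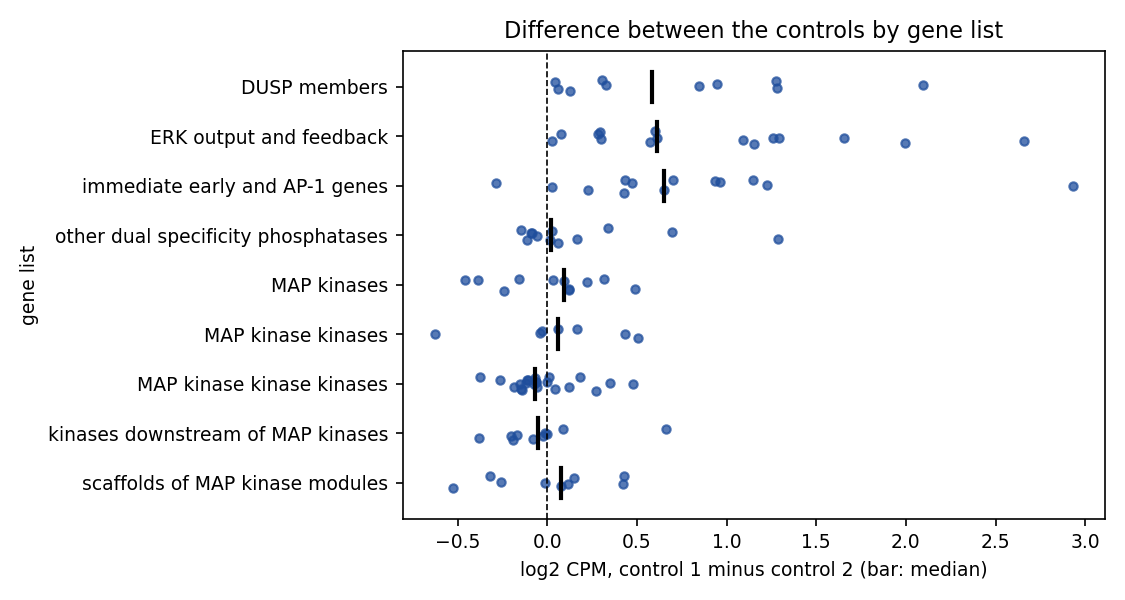
Log2 CPM of control 1 minus control 2 (x axis) for each tested gene, by gene list (y axis), with a bar at the median of each list. The phosphatase genes, ERK output genes and immediate early genes have medians of 0.59, 0.61 and 0.65, and the kinase and scaffold lists have medians between -0.067 and 0.092.

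Levels per gene length spanned a wide range. In control the mean RPKM was 45.5 ± 6.76 for DUSP14 and 43.0 ± 19.3 for DUSP1, which overlapped, then 21.7 ± 3.47 for DUSP2 (SD, n = 2 each). DUSP7 followed at 9.40 ± 0.210 RPKM, then DUSP8 at 7.14 ± 0.214 and DUSP5 at 6.65 ± 3.91. The libraries of DUSP5 overlapped those of both DUSP7 and DUSP8. DUSP16 stood at 3.48 ± 0.212 RPKM, below every library of DUSP5. The lowest were DUSP6 at 1.22 ± 1.04, DUSP10 at 1.10 ± 0.418 and DUSP4 at 0.927 ± 0.530 RPKM, whose libraries overlapped from one to the next.

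With cadmium DUSP1 stood highest at 72.7 ± 9.51 RPKM, above every library of DUSP14 at 32.3 ± 3.63 RPKM. DUSP2 no longer held a level of its own: at 8.40 ± 0.0875 RPKM it overlapped DUSP7 at 8.45 ± 0.544 RPKM. DUSP8 at 7.82 ± 0.274, DUSP5 at 6.42 ± 0.339, DUSP16 at 5.03 ± 0.146 and DUSP10 at 2.13 ± 0.120 RPKM followed without overlap. DUSP6 at 0.962 ± 0.149 and DUSP4 at 0.889 ± 0.0601 RPKM overlapped.

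**Figure D4:**
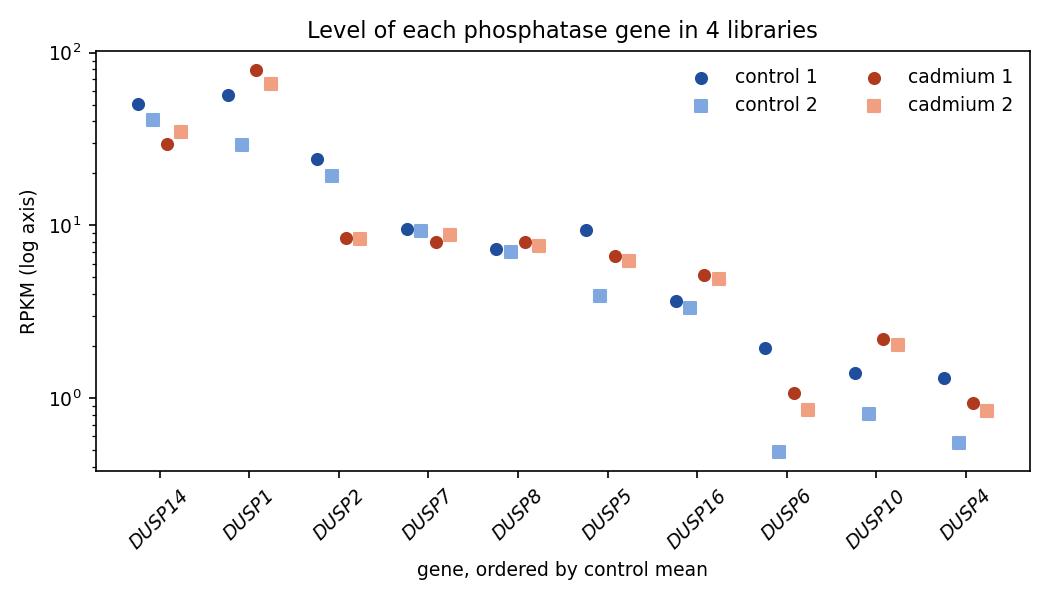
RPKM on a log axis (y axis) of the 10 genes, ordered by control mean (x axis), with each of the 4 libraries as a point. The cadmium points of DUSP2 (8.46 and 8.34 RPKM) lie below both control points (24.2 and 19.3 RPKM), whereas for DUSP4, DUSP5 and DUSP6 they lie between the control points.

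The makeup of the family differed more than its total. The RPKM of the 10 genes summed to 166 and 115 in the controls and to 150 and 140 with cadmium, so that the cadmium libraries lay between the controls. DUSP1 made up 34.2% and 25.6% of that sum in the controls and 53.1% and 47.0% with cadmium. The share of DUSP2 was 14.6% and 16.8% in the controls against 5.65% and 5.94%, and that of DUSP14 was 30.3% and 35.5% against 19.8% and 24.8%. The ratio of DUSP1 to DUSP2, which was chosen after the values were seen, was 2.34 and 1.52 in the controls and 9.39 and 7.91 with cadmium.

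**Figure D5:**
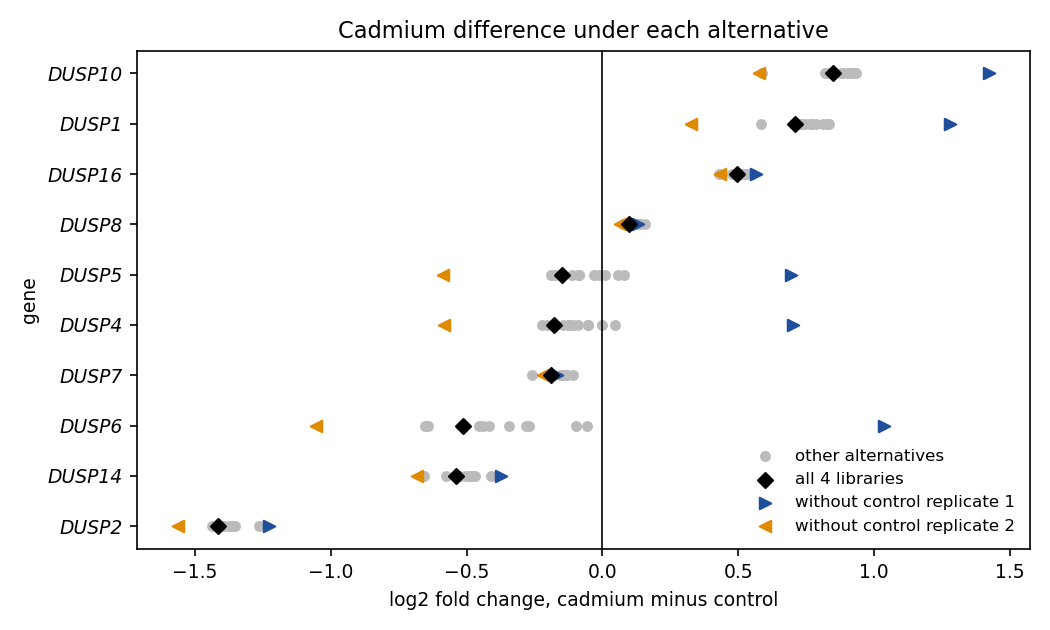
Log2 fold change (cadmium minus control, x axis) of each gene (y axis) with all 4 libraries (black diamonds), without control 1 (blue), without control 2 (orange) and under the other alternatives (grey). DUSP2 stays between -1.56 and -1.23 throughout, whereas DUSP6 moves from -1.06 to 1.04.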

How the data were processed

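RNA from 2 control and 2 cadmium libraries of BEAS-2B cells was measured by sequencing of TruSeq libraries from column-purified total RNA, per the labels' protocols. The submitters' processing notes name STAR 2.4, DESeq2, DESeq and the builds hg19 and GRCh37, with no roles. Neither counter nor annotation nor strandedness is stated (not given in the sources used here). Per the file headers and the values, the authors deposited raw counts (whole numbers, each row under 1 or more RefSeq identifiers) and RPKM for each library. The authors' deposited comparison table holds group means in RPKM, a log ratio (taken as log2, not printed) and raw and adjusted p-values.

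Rows were joined by RefSeq identifier, since 4 symbols differ between tables. Counts were filtered with filterByExpr, scaled with TMM and fitted with edgeR 4.0.16 in R 4.3.3 (robust glmQLFit and glmQLFTest, group alone). Benjamini-Hochberg adjustment covered 13663 genes (threshold 0.05). SE values come from the F statistic. The procedure was tested on simulated counts. Alternatives were a replicate block, other scaling and filters, DESeq2 1.42.0, limma-voom (limma 3.58.1), thinned counts, leaving out each library, and limma on log2 RPKM with a pseudocount of 0.1 or 1. No member overlaps another row of the tables. Named genes were the 10 members and, per pathway list, up to 2 passing genes with the largest change and at least 1 CPM, or the 1 with the smallest p, and any marker of RNA quality or cell type. Other genes are marked as named after their values were seen. Members and lists were chosen with earlier results of these data known. Protein sequences were not used here.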

Additional observations from a re-analysis of the deposited data

How the results depend on the processing

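DUSP2 stayed lower in 15 of 15 alternatives (log2 fold change from -1.56 to -1.23) and passed in 14, the exception being limma on log2(RPKM + 0.1) (adjusted p = 0.0594), where only 14 genes in all were called higher and 0 lower. DUSP14 and DUSP16 kept their direction in 15 of 15 and passed in 11 each. Leaving out 1 library gave from 0 to 4 higher and from 1 to 4 lower phosphatase genes, a median log2 fold change from -0.40 to 0.63, from 0 to 21 higher and from 0 to 14 lower pathway genes, and from 369 to 1977 higher and from 235 to 1791 lower genes in all. With the replicate block 3 phosphatase genes were higher and 2 lower, DUSP1 and DUSP10 being added (edgeR adjusted p = 0.0218 and 0.0447). In that fit 1073 genes in all were higher and 811 lower. Whether libraries with the same replicate number belong together is not stated. Across genes the difference between the controls and that between the cadmium libraries had a correlation of -0.19. That value cannot decide the pairing. Cadmium replicate 1 was above cadmium replicate 2 for 8 of the 10 phosphatase genes and for 6773 of all 13663 tested genes. A block on crossed numbers, added after seeing the data, gave 1 higher and 2 lower phosphatase genes and 5 lower pathway genes. Over all genes it gave 1551 higher and 1471 lower. With no filter 2 phosphatase genes were higher, beside 1649 higher and 1467 lower genes in all. With library size alone 682 genes in all and 1 pathway gene were lower, and with thinned counts 1 pathway gene was lower. With limma on log2(RPKM + 0.1) 0 phosphatase and 0 pathway genes passed in either direction, and the phosphatase median was 0.064. With log2(RPKM + 1) 512 genes were higher and 233 lower in all, 0 phosphatase genes higher and 1 lower, and 2 pathway genes higher and 0 lower. The sign turned for DUSP4 (0.70 without control replicate 1, 0.048 with log2(RPKM + 0.1)), for DUSP5 (0.70 without control replicate 1, 0.011 with thinned counts, 0.081 and 0.056 with log2 RPKM) and for DUSP6 (1.04 without control replicate 1). Without control replicate 2 these 3 stood at -0.58, -0.59 and -1.06. The cause of these shifts was not tested. DUSP6 was not tested with the filter of 5 CPM in 2 libraries. The order of the 10 levels in the control mean held for 6 and 7 genes in control replicates 1 and 2 and for 6 and 4 genes in cadmium replicates 1 and 2. Depth limits DUSP6, DUSP10 and DUSP4 most, with 15, 20 and 29 reads in control replicate 2.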

Other observations

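DUSP5P1, a pseudogene of DUSP5 on chromosome 1 (228780658 to 228788159 in hg19), was looked at after its values were seen. It was read 15 and 3 times in the controls against 58 and 30 times with cadmium, a log2 fold change of 1.88 (SE 0.39, edgeR adjusted p = 0.0182). Its reads equalled 2.11% and 3.16% of those of DUSP5 in the controls and 10.1% and 10.8% with cadmium. How reads shared by the gene and its pseudogene were assigned is unknown, so the split between them is uncertain. SPRY1, a feedback inhibitor upstream of ERK that was also named after its values were seen, was too low to be tested, with 1 and 0 reads in the controls and 23 and 7 reads with cadmium.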
